A study of Homo sapiens with 4 samples.

Results

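The genes described here are the transcription coactivators YAP1 and WWTR1, their DNA-binding partner TEAD1, and established targets of the complex they form. The rule named 10 genes (CTGF, CYR61, THBS1, ANKRD1, AMOTL2, AXL, LATS2, YAP1, WWTR1 and TEAD1), of which 9 were among the 7698 genes of the table. LATS2 was not analysed here. The set was chosen because CTGF and THBS1 were lower in siPCBP2 cells in these same libraries, so the siPCBP2 values of the 9 genes are given as a description and no test of them is drawn on. RNA came from MDA-MB-231, an established line of triple-negative breast cancer cells, in 2 siPCBP2 libraries (PCBP2 silenced by small interfering RNA, by title and source name) and 2 untreated libraries. One treatment field of the siPCBP2 samples names transfection with PCBP2 instead, and the labels name no control RNA for the untreated cells, so the effect of transfection and that of silencing cannot be told apart. Whether replicate libraries stem from separate cultures is not stated in the labels.

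In the Hippo pathway, the kinases MST and LATS phosphorylate YAP (YAP1) and TAZ (WWTR1), which are then held in the cytoplasm or degraded. Unphosphorylated YAP and TAZ enter the nucleus, bind TEAD factors and switch on genes of growth, matrix and adhesion, of which CTGF and CYR61 are the usual reporters. MDA-MB-231 is known to carry an inactivating mutation of NF2, an upstream activator of the pathway, and is widely used as a line with active YAP and TAZ. PCBP2 is an RNA-binding protein of C-rich stretches that acts on the stability, processing and translation of transcripts.

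The targeted gene was read first. PCBP2 measured 16.6 and 16.7 FPKM (a fragment count scaled by transcript length and library size) in the siPCBP2 libraries, against 101.4 and 92.9 FPKM in the untreated libraries. By limma it fell by 2.47 on the log2(FPKM + 1) scale (SE 0.11, adjusted p = 0.0119 over 7689 genes tested), which goes with the titles. With any 1 library left out, its adjusted p by limma was 0.0559 to 0.326, past the threshold in none of the 4 fits, and its log2 difference stayed between -2.54 and -2.41. Over all genes, log2 values correlated at 0.966 between the siPCBP2 libraries, at 0.970 between the untreated libraries and at 0.950 to 0.956 across groups. All 5 fixed markers of a mesenchymal-like breast cancer line were listed, with vimentin (VIM) at 475 and 502 FPKM in siPCBP2 and 536 and 491 FPKM in untreated cells. Another of the 5, the epithelial keratin KRT18, measured 45.9 and 44.9 FPKM in siPCBP2 and 85.5 and 86.2 FPKM in untreated cells, apart between groups without passing over all genes (limma adjusted p = 0.0847). Listed markers of other cells were 2 of 6 luminal, 1 of 8 immune and 0 of 9 stromal or endothelial genes. The epithelial adhesion molecule EPCAM measured 3.84 and 3.02 FPKM in siPCBP2 and 4.84 and 5.31 FPKM in untreated cells, and the receptor ERBB2 16.7 and 21.3 FPKM in siPCBP2 and 15.2 and 11.9 FPKM in untreated cells. The lysosomal protein CD68, best known from macrophages, measured 35.2 and 38.7 FPKM in siPCBP2 and 28.7 and 29.1 FPKM in untreated cells, and the common leukocyte gene PTPRC was not among the listed genes. These 3 genes and KRT18 did not overlap between groups, as was so of 29.4% of all genes tested as lower and 19.7% as higher, and their part in the values below was not tested. The summed FPKM of the table was 378204 and 352964 in the siPCBP2 and 371693 and 376347 in the untreated libraries, and the sequencing depth is unknown, because no read counts were used.

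TEAD factors recognise the word GGAATG, read on either strand, and promoters of their targets often hold it close to the start of transcription. Windows from 250 bases before to 50 bases after the start were taken from RefSeq (GRCh38.p14), where 8 of the 10 genes of the rule matched by symbol, CTGF under its newer name CCN2. Windows for CYR61 and TEAD1 were not used here. The 4 windows below cover genes with different responses, and all of them hold the word. They are those of CTGF and THBS1, the lowest genes of the set relative to untreated cells, of ANKRD1, which was lower to a smaller degree, and of AMOTL2, whose groups overlapped. For AMOTL2 the second window is shown, which holds the word, unlike the first. The groups of WWTR1 overlapped too, and its windows, which lack the word, are not shown. Capitals mark GGAATG or its reverse complement CATTCC, and each sequence runs 5′ to 3′ along the strand of the gene.
CTGF, chr6:131951323-131951622, minus strand: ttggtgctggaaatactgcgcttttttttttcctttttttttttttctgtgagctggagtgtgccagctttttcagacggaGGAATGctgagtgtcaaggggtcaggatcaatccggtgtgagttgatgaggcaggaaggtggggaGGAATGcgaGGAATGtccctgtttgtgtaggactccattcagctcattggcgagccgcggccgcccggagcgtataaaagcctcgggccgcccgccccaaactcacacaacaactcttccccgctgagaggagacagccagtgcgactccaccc
THBS1, chr15:39580829-39581128, plus strand: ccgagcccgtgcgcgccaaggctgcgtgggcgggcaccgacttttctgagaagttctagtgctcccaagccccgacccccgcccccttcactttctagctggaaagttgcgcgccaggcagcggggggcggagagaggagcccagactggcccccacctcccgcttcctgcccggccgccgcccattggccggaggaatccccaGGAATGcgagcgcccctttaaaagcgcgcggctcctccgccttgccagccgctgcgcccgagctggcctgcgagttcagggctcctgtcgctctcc
ANKRD1, chr10:90921038-90921337, minus strand: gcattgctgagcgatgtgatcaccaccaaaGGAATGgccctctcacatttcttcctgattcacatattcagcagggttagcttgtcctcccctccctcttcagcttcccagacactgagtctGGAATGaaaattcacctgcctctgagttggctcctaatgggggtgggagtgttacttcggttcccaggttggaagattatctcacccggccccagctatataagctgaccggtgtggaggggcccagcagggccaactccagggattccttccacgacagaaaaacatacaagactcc
AMOTL2, second start, chr3:134374398-134374697, minus strand: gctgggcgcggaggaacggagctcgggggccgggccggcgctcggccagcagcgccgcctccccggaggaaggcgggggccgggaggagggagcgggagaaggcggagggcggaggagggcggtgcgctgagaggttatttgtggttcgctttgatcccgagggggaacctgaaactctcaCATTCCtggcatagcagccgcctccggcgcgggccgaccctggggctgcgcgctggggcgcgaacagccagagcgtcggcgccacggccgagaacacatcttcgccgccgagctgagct

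The CTGF window held the word 3 times, beginning 169, 104 and 95 bases before the start. In THBS1 it lay once, 46 bases before the start, and in ANKRD1 it lay 220 and 128 bases before the start. AMOTL2 had none in its first window and 1 copy on the opposite strand in its second, 69 bases before the start. AXL likewise had none in its first window and 1 in its second, YAP1 had 1 and WWTR1 none in either of its windows. Over all 35116 windows of the table, 14.0% held the word at least once, 1.37% at least 2 times and 0.128% at least 3 times. Among windows of genes listed in the file the share with at least 1 copy was 11.6%. AP-1, a factor that often binds beside TEAD, has the site TGACTCA or TGAGTCA. The looser word TGANTCA, with any base at N, was found in 1 of the 10 windows of listed members and in 7.71% of all windows. That window was the one of ANKRD1, where the match read TGATTCA and so was not the AP-1 site itself. This match lay 195 bases before the start and overlapped no TEAD word. Windows with the stricter site were not counted over all genes. The CArG box of SRF, another regulator of CTGF and CYR61, was in 0 of these 10 windows and in 1.29% of all. CYR61 has no window among the 10, and 10 windows are few for so rare a word. A match of letters does not show that a factor binds there.

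CTGF (connective tissue growth factor, CCN2, a secreted matricellular protein) is a gene of 5 exons on the minus strand of chromosome 6 (131948176 to 131951373, hg38, as are all gene positions here). It measured 39.2 and 38.0 FPKM in siPCBP2 cells, against 67.5 and 72.4 FPKM in untreated cells. Both siPCBP2 libraries lay below both untreated libraries, and the gap was wider than the spread within either group. The means were 38.6 ± 0.879 FPKM in siPCBP2 and 70.0 ± 3.51 FPKM in untreated cells (SD, n = 2 each), 44.8% lower in siPCBP2 cells, with a log2 difference of -0.84 (SE 0.11). In bulk RNA, fewer cells expressing a gene and less RNA of it per cell cannot be told apart. By level, CTGF stood at places 1429 and 1417 of the 7698 listed genes in siPCBP2 cells and at places 707 and 635 in untreated cells.

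THBS1 (thrombospondin 1, a secreted glycoprotein that binds CD47 and integrins and can activate latent TGF-beta) has 22 exons and lies on the plus strand of chromosome 15 (39581079 to 39599466). Its values were 105 and 102 FPKM in siPCBP2 cells and 189 and 190.2 FPKM in untreated cells. The groups were again apart, and the libraries of each group nearly coincided. The mean was 104 ± 1.51 FPKM in siPCBP2 and 189.8 ± 0.583 FPKM in untreated cells (SD, n = 2 each), 45.5% lower, with a log2 difference of -0.87 (SE 0.09). Ordered from the most negative difference over the 7689 genes tested, THBS1 was at place 83 and CTGF at place 100. The authors' deposited table gives their folds in the other direction, untreated over siPCBP2, as 1.83 for THBS1 and 1.81 for CTGF.

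CYR61 (CCN1, the closest relative of CTGF in this set, also a secreted matricellular protein) is encoded on chromosome 1 (85580761 to 85583962, plus strand) and was the most abundant of the 9 genes in every library. It measured 489 and 467 FPKM in siPCBP2 cells, against 611 and 578 FPKM in untreated cells. The groups did not overlap, but the mean, 478 ± 15.8 FPKM in siPCBP2 and 595 ± 23.1 FPKM in untreated cells (SD, n = 2 each), was only 19.6% lower, a log2 difference of -0.31 (SE 0.09). ANKRD1, an ankyrin-repeat nuclear cofactor first known from heart muscle and a standard YAP reporter (chromosome 10, 90912096 to 90921276, minus strand), measured 257 and 272 FPKM in siPCBP2 cells and 343 and 331 FPKM in untreated cells. It too was lower in both siPCBP2 libraries, by 21.3% in the mean (265.0 ± 10.6 FPKM in siPCBP2 and 337 ± 8.55 FPKM in untreated cells, SD, n = 2 each), with a log2 difference of -0.34 (SE 0.09).

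The other listed targets did not separate the groups. AXL, a receptor tyrosine kinase for GAS6 (chromosome 19, 41219203 to 41261766, plus strand), measured 256 and 228 FPKM in siPCBP2 cells, against 218 and 234 FPKM in untreated cells. AMOTL2, an angiomotin that binds YAP and restrains it (chromosome 3, 134355874 to 134375479, minus strand), measured 34.5 and 31.5 FPKM in siPCBP2 cells and 28.9 and 32.6 FPKM in untreated cells. For both, 1 siPCBP2 library lay inside the range of the untreated ones, with log2 differences of 0.10 (SE 0.11) for AXL and 0.10 (SE 0.12) for AMOTL2.

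Among the factors themselves, TEAD1 was lower and the coactivators were not apart. TEAD1, which brings the complex to DNA (chromosome 11, 12674591 to 12944483, plus strand), measured 35.1 and 32.7 FPKM in siPCBP2 cells, against 41.0 and 43.9 FPKM in untreated cells, 20.2% lower in the mean (log2 difference -0.32, SE 0.11). YAP1 (chromosome 11, 102110461 to 102233423, plus strand) measured 51.8 and 58.6 FPKM in siPCBP2 cells and 53.1 and 57.9 FPKM in untreated cells, with a log2 difference of -0.01 (SE 0.12). WWTR1, which encodes TAZ (chromosome 3, 149517235 to 149736714, minus strand), measured 18.2 and 13.5 FPKM in siPCBP2 cells and 14.4 and 14.7 FPKM in untreated cells, with a log2 difference of 0.10 (SE 0.17). The siPCBP2 libraries of WWTR1 lay on both sides of the untreated ones. Leaving out siPCBP2 replicate 1 turned the log2 difference of WWTR1 to -0.10 and that of YAP1 to 0.08. In GENCODE 29, exons of CTGF, THBS1, AXL, YAP1 and WWTR1 overlap 1 gene each on the opposite strand, and exons of AMOTL2 a pseudogene on its own strand, so fragments of these pairs may have been shared. All values are mRNA levels, and the control of YAP and TAZ by phosphorylation and location was not measured.

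**Figure D1:**
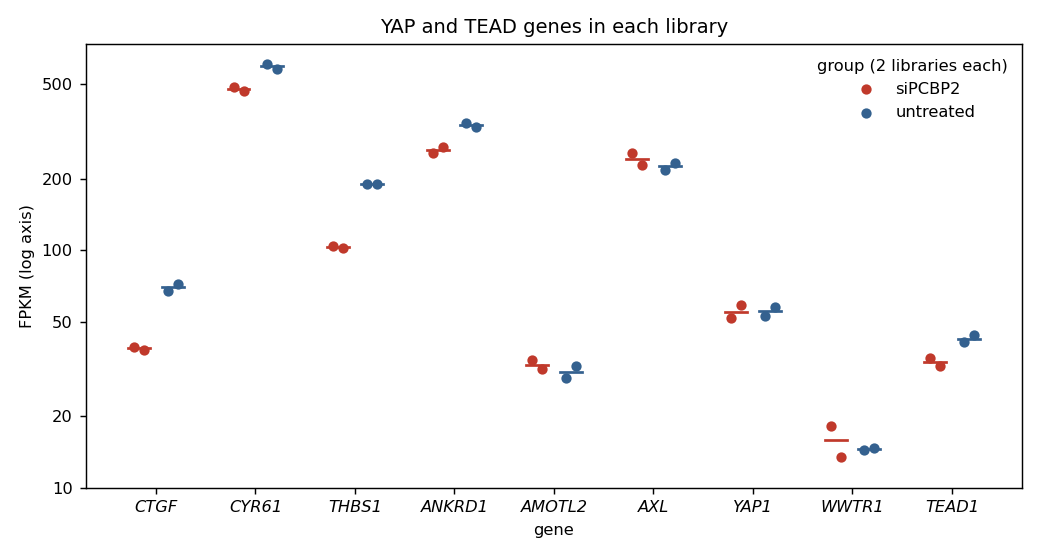
FPKM on a log axis for the 9 YAP and TEAD genes; each point is 1 library (siPCBP2 red, untreated blue, 2 each) and each short line a group mean. CTGF (39.2 and 38.0 against 67.5 and 72.4 FPKM) and THBS1 (105 and 102 against 189 and 190.2 FPKM) show the widest gaps, while the points of YAP1, WWTR1, AXL and AMOTL2 overlap between groups.

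In FPKM, which is scaled to length and so allows genes to be set beside each other, the order in untreated cells ran CYR61, ANKRD1, AXL, THBS1, CTGF, YAP1, TEAD1, AMOTL2 and WWTR1. In that order no neighbours overlapped between libraries, with THBS1 (highest 190.2 FPKM) below AXL (lowest 218 FPKM), and WWTR1 stood last at 14.6 ± 0.228 FPKM (SD, n = 2). In siPCBP2 cells CTGF had moved below YAP1, with a highest value of 39.2 FPKM against a lowest of 51.8 FPKM for YAP1. There, TEAD1 (33.9 ± 1.72 FPKM) and AMOTL2 (33.0 ± 2.13 FPKM) overlapped (SD, n = 2 each). ANKRD1 and AXL lay next to each other, with a lowest ANKRD1 value of 257 FPKM and a highest AXL value of 256 FPKM. The 9 genes together made up 0.340% and 0.353% of the summed FPKM in siPCBP2 cells, against 0.421% and 0.413% in untreated cells.

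Ratios within a library do not depend on how the library was scaled. CYR61 was taken as one denominator because it was the most abundant member, and AXL as the other because it was the most abundant member whose groups overlapped; both were chosen after their values were seen. CTGF over CYR61 was 0.0802 and 0.0814 in siPCBP2 cells, against 0.110 and 0.125 in untreated cells. THBS1 over CYR61 was 0.214 and 0.219 in siPCBP2 cells, against 0.310 and 0.329 in untreated cells. These ratios restate in another form the values on which CTGF and THBS1 were chosen. ANKRD1 over CYR61 was 0.526 and 0.584 in siPCBP2 cells and 0.561 and 0.572 in untreated cells, and TEAD1 over CYR61 overlapped in the same way (0.0718 and 0.0701, against 0.0672 and 0.0760). Over AXL, CTGF stood at 0.153 and 0.166 in siPCBP2 cells and 0.309 in both untreated libraries. ANKRD1 over AXL was 1.00 and 1.19 in siPCBP2 cells, against 1.57 and 1.41 in untreated cells. TEAD1 over AXL was 0.137 and 0.143 in siPCBP2 cells, against 0.188 in both untreated libraries. CYR61 was itself lower in siPCBP2 cells, and AMOTL2, AXL, YAP1 and WWTR1 over CYR61 were higher there without overlap.

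**Figure D2:**
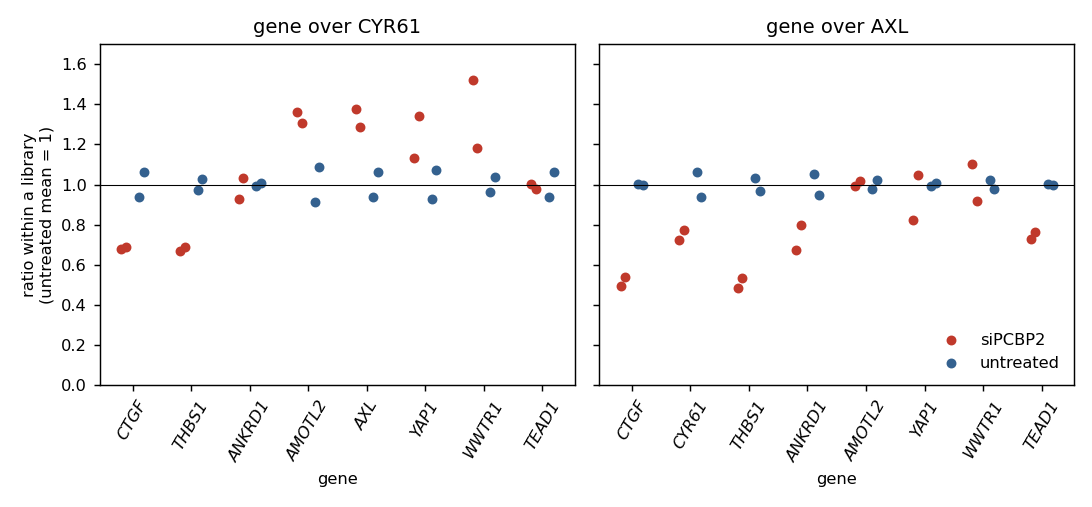
Ratio of each gene to CYR61 (left) and to AXL (right) within each library, divided by the mean ratio of the untreated libraries, on linear axes; points are libraries (siPCBP2 red, untreated blue). CTGF and THBS1 lie below 1 in both siPCBP2 libraries with either denominator. ANKRD1 and TEAD1 lie around 1 over CYR61, and AMOTL2, YAP1 and WWTR1 lie around 1 over AXL. In both siPCBP2 libraries, CYR61, ANKRD1 and TEAD1 lie below 1 over AXL. AMOTL2, AXL, YAP1 and WWTR1 lie above 1 over CYR61 there.

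Shares within the small families are also free of library scaling. YAP1 made up 74.0% and 81.2% of the summed FPKM of YAP1 and WWTR1 in siPCBP2 cells, against 78.7% and 79.7% in untreated cells, so the groups overlapped. TEAD1 made up 53.3% and 57.5% of the sum of TEAD1, TEAD3 and TEAD4 in siPCBP2 cells, against 62.2% and 62.7% in untreated cells. TEAD3, a paralog with the same DNA-binding domain, measured 21.5 and 16.7 FPKM in siPCBP2 and 16.1 and 18.9 FPKM in untreated cells. TEAD4 measured 9.33 and 7.54 FPKM in siPCBP2 and 8.82 and 7.18 FPKM in untreated cells. AMOTL2 held 51.8% and 51.4% of the sum of AMOTL1 and AMOTL2 in siPCBP2 cells and 48.9% and 53.7% in untreated cells.

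Against all genes tested by limma, 0 of the 9 genes passed an adjusted p under 0.05 in either direction, where 0.0520% of all genes passed as lower and 0% as higher. At an unadjusted p under 0.05, 5 of the 9 were lower and 0 higher, where 9.73% of all genes were lower and 5.67% higher. The same 5, CTGF, THBS1, CYR61, ANKRD1 and TEAD1, had both siPCBP2 libraries below both untreated ones and 0 had the reverse, where 29.4% of all genes were lower and 19.7% higher without overlap. All 9 genes passed the filter on low values, each with over 13 FPKM in every library. Their median log2 difference was -0.31, and that of all genes -0.04. Since the set was picked on this contrast, nothing is read from these counts.

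**Figure D3:**
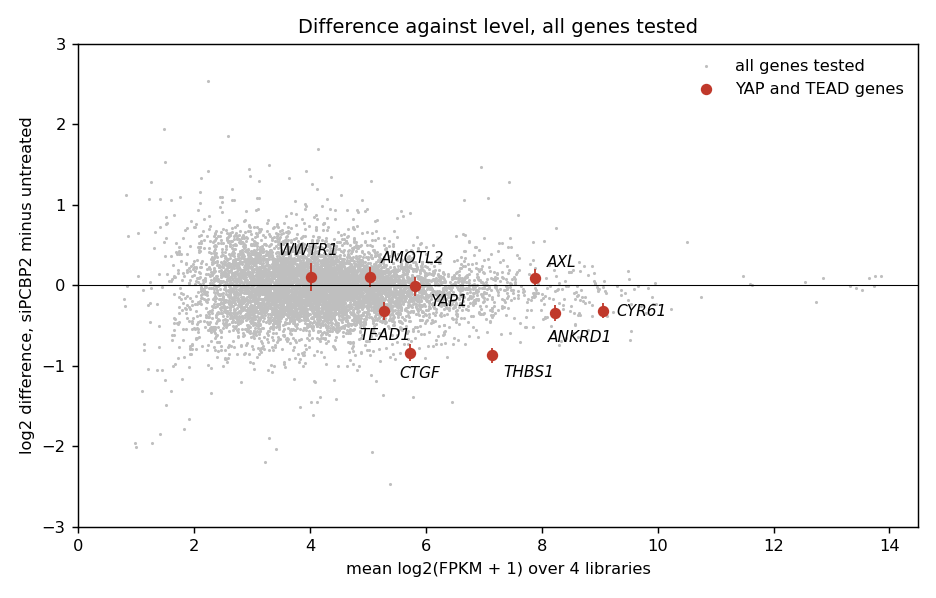
Log2 difference (siPCBP2 minus untreated) against the mean log2(FPKM + 1) over the 4 libraries for the 7689 genes tested (grey; 2 lie beyond the vertical axis), with the 9 YAP and TEAD genes in red and bars of 1 SE. CTGF and THBS1 sit at the lower edge of the cloud for their level (-0.84 and -0.87), and YAP1 at -0.01 sits in its middle.

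The pathway around these genes was read from 6 lists, which leave out the 9 members and are compared with 0.0520% of genes called lower and 0% called higher over the whole table. At an unadjusted p under 0.05, the shares over the whole table were 9.73% lower and 5.67% higher. In the Hippo kinase core and its upstream regulators, 0 of 30 genes passed, and 2 were lower and 3 higher at an unadjusted p under 0.05 by limma. The median log2 difference of the list was -0.06. The lowest p-values belonged to FRMD6, STRN4, WWC2 and SAV1 (adjusted p from 0.174 to 0.267). FRMD6, a FERM-domain protein that acts upstream of the kinases, measured 231 and 196 FPKM in siPCBP2 cells, against 142 and 140.2 FPKM in untreated cells. The scaffold SAV1, which joins MST to LATS, measured 29.8 and 30.7 FPKM in siPCBP2 and 24.2 and 23.0 FPKM in untreated cells. STRN4, a striatin of the phosphatase complex that opposes MST, measured 39.0 and 34.4 FPKM in siPCBP2 and 25.2 and 25.8 FPKM in untreated cells. WWC2, a relative of KIBRA that promotes LATS activity, measured 15.5 and 15.8 FPKM in siPCBP2 and 20.6 and 21.4 FPKM in untreated cells. All 4, named for their smallest p, had groups apart without passing over all genes. Of the 30 genes of the list, 11 were lower and 5 higher without overlap. Over all genes tested, 29.4% were lower and 19.7% higher without overlap. NF2 itself, shown because this line carries a mutation of it, measured 3.899 and 2.77 FPKM in siPCBP2 and 4.28 and 3.59 FPKM in untreated cells, which overlapped.

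Of the partners and inhibitors of YAP and TEAD, 0 of 23 passed by limma, and 1 was lower and 0 higher at an unadjusted p under 0.05 (median log2 difference -0.04). YWHAZ, a 14-3-3 protein of the kind that holds phosphorylated YAP in the cytoplasm, measured 325 and 343 FPKM in siPCBP2 and 384 and 410.3 FPKM in untreated cells. Another 14-3-3 gene, YWHAG, lay the other way, with 62.7 and 59.2 FPKM in siPCBP2 and 51.3 and 50.7 FPKM in untreated cells. VGLL4, which competes with YAP for TEAD, measured 17.7 and 18.5 FPKM in siPCBP2 and 14.4 and 15.1 FPKM in untreated cells. Their adjusted p-values ran from 0.316 to 0.351.

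Among other genes described as YAP and TEAD targets, 1 of 26 passed by limma and it was lower. That gene was NT5E, which encodes the cell-surface enzyme CD73 and which the title of the series names as regulated by PCBP2, so its direction is not independent evidence. NT5E measured 50.3 and 54.0 FPKM in siPCBP2 cells, against 143 and 145 FPKM in untreated cells, with a log2 difference of -1.45 (SE 0.10, adjusted p = 0.0418). The call of NT5E was lost with any 1 library left out (limma adjusted p from 0.103 to 0.330), under both other scalings, without the trend and with the replicate block, while its log2 difference stayed between -1.50 and -1.40. At an unadjusted p under 0.05, 1 gene of the list was lower, NT5E itself, and 3 were higher, and the median was -0.07. The 3 were GADD45A, a growth arrest gene also induced by p53, the RNA-binding protein RBMS3 and the actin-binding protein NEXN (adjusted p from 0.171 to 0.313). GADD45A measured 31.3 and 35.6 FPKM in siPCBP2 and 18.5 and 21.5 FPKM in untreated cells. NEXN had 35.3 and 20.9 FPKM in siPCBP2 and 17.9 and 15.8 FPKM in untreated cells, where siPCBP2 replicate 1 set most of the gap. RBMS3 measured 24.1 and 20.4 FPKM in siPCBP2 and 16.4 and 17.2 FPKM in untreated cells.

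CTGF, CYR61 and THBS1 are also known targets of SRF with its actin-regulated cofactors and of TGF-beta through SMAD factors, so both groups were read beside them. Of SRF and MRTF genes, 0 of 21 passed, 1 was lower and 3 higher at an unadjusted p under 0.05 by limma, and the median log2 difference was 0.11. SRF itself measured 32.5 and 25.8 FPKM in siPCBP2 and 20.3 and 23.1 FPKM in untreated cells, and the tropomyosin TPM4 427 and 390 FPKM in siPCBP2 and 278 and 353 FPKM in untreated cells. FILIP1L, a filamin-interacting protein, measured 5.18 and 5.53 FPKM in siPCBP2 and 3.77 and 3.07 FPKM in untreated cells. The lower one, the actin-binding protein TAGLN, measured 8.47 and 8.35 FPKM in siPCBP2 and 10.6 and 17.1 FPKM in untreated cells.

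Of TGF-beta ligands, receptors and SMAD targets, 0 of 17 passed, 3 were lower and 1 higher at an unadjusted p under 0.05 by limma, and the median was -0.13. The 3 lower ones are genes that TGF-beta or BMP signals are known to induce. ID1, an inhibitor of basic helix-loop-helix factors, measured 9.93 and 10.2 FPKM in siPCBP2 and 17.04 and 16.3 FPKM in untreated cells. PMEPA1, which restrains TGF-beta signalling, measured 2.60 and 4.92 FPKM in siPCBP2 and 9.90 and 9.40 FPKM in untreated cells. SKIL, a SMAD corepressor, measured 11.3 and 7.67 FPKM in siPCBP2 and 16.3 and 21.0 FPKM in untreated cells. The receptor TGFBR1 was the higher one, with 29.2 and 20.7 FPKM in siPCBP2 and 18.6 and 11.2 FPKM in untreated cells, and the adjusted p-values of the 4 ran from 0.166 to 0.315.

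The partners of the members outside the cell were read last. None of the other CCN genes and thrombospondins of the list was among the genes listed, and of its 25 genes 11 were, all of them receptors or ligands. Of these, 0 passed by limma, and 1 was lower and 1 higher at an unadjusted p under 0.05 (median 0.05). Integrin alpha 6, ITGA6, which binds CCN proteins, measured 71.8 and 88.4 FPKM in siPCBP2 and 114 and 108 FPKM in untreated cells. The heparan sulphate proteoglycan SDC4 measured 129 and 126 FPKM in siPCBP2 and 99.9 and 109.9 FPKM in untreated cells. CD47, a receptor for THBS1, measured 30.0 and 16.7 FPKM in siPCBP2 and 32.3 and 31.0 FPKM in untreated cells. PROS1, another gene of the list, measured 9.33 and 10.001 FPKM in siPCBP2 and 8.20 and 6.89 FPKM in untreated cells. The adjusted p-values of these 4 genes ran from 0.229 to 0.436.

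**Figure D4:**
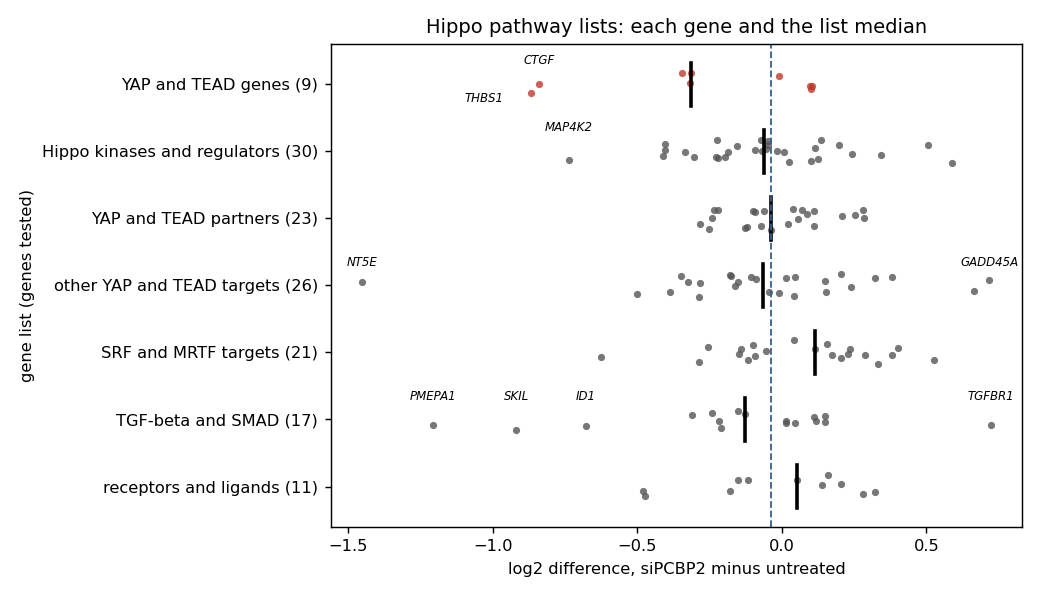
Log2 difference (siPCBP2 minus untreated) of every gene tested in 7 sets, with the number of genes in parentheses; dots are genes, black bars are medians, and the dashed line is the median of all genes (-0.04). The YAP and TEAD genes (red), a set chosen because CTGF and THBS1 were lower, have a median of -0.31. Medians of the 6 other lists lie between -0.13 and 0.11. NT5E, at -1.45, is the 1 gene shown that passed the threshold.

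The genes most like CTGF and THBS1 were found by the root mean square difference of log2(FPKM + 1), each gene centred on its own mean, over the 4 libraries. Among the 5 genes nearest to CTGF were SLC20A1, a phosphate transporter that is also a retrovirus receptor (0.03), DUSP4, a phosphatase of ERK (0.04), keratin 18, KRT18 (0.05), and TXNIP, an inhibitor of thioredoxin (0.05). Nearest to THBS1 were DUSP4 (0.01), KRT18 (0.02), SLC20A1 (0.02), the lysosomal sulphatase ARSB (0.04) and the exocyst subunit EXOC7 (0.04). SLC20A1 measured 60.1 and 59.0 FPKM in siPCBP2 cells, against 109 and 114 FPKM in untreated cells. DUSP4 measured 9.89 and 9.95 FPKM in siPCBP2 cells and 18.8 and 18.9 FPKM in untreated cells. KRT18 is the keratin given above among the markers of the line. With members included, THBS1 was at place 2 from CTGF and CTGF at place 6 from THBS1. With 4 libraries, many genes share a profile by this measure.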

How the data were processed

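Poly(A)-selected RNA of 4 libraries was sequenced in paired ends, per the labels' protocols. The submitters' processing notes name HISAT2 2.0, Trimmomatic 0.36, FastQC 0.11.2 and bedtools 2.26.0, with the build hg38; no quantifier, annotation release or strandedness was given in the sources used here. Deposited expression values were read as FPKM from their range, since the header names no unit; in another unit, levels of different genes could not be set side by side. The authors' fold (a ratio) equalled the untreated mean plus 0.1 over the siPCBP2 mean plus 0.1 for each of the 7698 genes, to a relative difference below 1e-06. The authors' deposited p-values and q-values, from a test that was not given, were not used. The lowest of those q-values was 0.517.

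The filter required 1 FPKM or more in 2 libraries or more (7689 genes tested, 9 left out). Log2(FPKM + 1) values were tested with limma 3.58.1 in R 4.3.3, with a mean-variance trend, as siPCBP2 minus untreated, two-sided, with Benjamini-Hochberg adjustment over all genes tested. The pseudocount understates changes of low genes. The smallest two-sided exact permutation p for 2 libraries against 2 is 0.333, so no such test was made. The fit was tested on simulated data. P-values reflect library-to-library spread alone, which may be technical. Replicates were not copies: 0 genes had the same value above 0 in both.

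The members, lists and rule were chosen with earlier results of these data known. Every listed member, and in each list the genes past the threshold and the 4 with the smallest p, were named, with PCBP2, listed relatives and the 5 genes most like CTGF and THBS1. Promoter windows are from RefSeq, and transcripts from GENCODE 29. The 12 alternatives changed the pseudocount, filter, scaling, variance trend or replicate block, or left out 1 library. A few genes and 1 gene list that the rule covers are not reported here.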

Additional observations from a re-analysis of the deposited data

How the results depend on the processing

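Over all genes, 4 genes passed, and NT5E was the 1 that belonged to a pathway list. With quantile-normalized values, and with every library scaled to the same total, 2 genes passed and NT5E did not, so 0 passed in the list of other YAP and TEAD targets (adjusted p = 0.0918 and 0.0604 for NT5E). Without a mean-variance trend 0 genes passed, and 0 in that list (adjusted p = 0.0772 for NT5E). With the replicate number as a block 0 genes passed, and 0 in that list (adjusted p = 0.249 for NT5E); same-numbered libraries deviated together at a correlation of -0.089, and the numbers are not known to pair the libraries. Leaving out any 1 library left 0 genes, and 0 in that list, by limma, where unadjusted p-values under 0.05 numbered 632 to 1192; this takes the single remaining library to be as variable as the other group. The causes were not tested. Both other pseudocounts, no filter and the stricter filter kept the count at 4, and the 5 other lists had 0 calls in all 12 alternatives.

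The log2 difference of CTGF ran from -0.89 to -0.77, that of THBS1 from -0.88 to -0.83, of CYR61 from -0.35 to -0.20, of ANKRD1 from -0.38 to -0.22 and of TEAD1 from -0.37 to -0.26, below 0 in all 12. AXL (0.01 to 0.20) and AMOTL2 (0.02 to 0.19) were above 0 in all 12, while YAP1 (-0.10 to 0.08) and WWTR1 (-0.10 to 0.31) crossed it. With 2 libraries a group and no counts, differences as small as those of AXL, AMOTL2, YAP1 and WWTR1 could not be told from the spread.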

Other observations

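Because PCBP2 binds C-rich RNA, the base content of the transcripts was read from GENCODE 29, taking for each gene the coding transcript with the longest coding sequence. Over 7069 listed genes with a 3' untranslated region of at least 100 bases, the median was 20.3% C and 2.76 copies of CCCC per kilobase (overlapping copies counted). The region of CTGF, 1088 bases long, held 16.3% C and 1.84 copies per kilobase, and that of THBS1, 4097 bases long, 18.1% C and 2.44 copies per kilobase. Both lay below the median in both measures, as did CYR61 (14.2% C, 0 copies) and ANKRD1 (15.97% C, 2.60 copies per kilobase). TEAD1 was also lower in siPCBP2 cells. Its region, 812 bases long, held 17.5% C but 3.69 copies per kilobase, above the median. The region of ANKRD1 is 770 bases long, and in regions this short a few copies set the rate. Of the 4 genes whose levels overlapped between groups, AMOTL2 (24.7% C, 8.75 copies per kilobase) and AXL (23.5% C, 4.83 copies per kilobase) lay above both medians. YAP1 (15.2% C, 1.15 copies per kilobase) and WWTR1 (16.8% C, 1.68 copies per kilobase) lay below both. In a set chosen because CTGF and THBS1 were lower, this is a description of the annotated transcripts. Which ends are used in these cells was not measured.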
